A study of Sus scrofa with 6 samples.

Results

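The transcripts described here are those of the mitogen-activated protein kinases (MAPKs) MAPK3, MAPK8 and MAPK14, the activating kinases MAP2K1 and MAP2K2, and 4 genes that act behind ERK or report on it, DUSP6, ETV5, SPRY2 and PTPRR. Members were all probe sets that the annotation of the array, or the study's own list of probe sets that differ between the sexes, names for these 9 genes. MAP2K1 and SPRY2 have no probe set named for them in either source and were dropped. The other 7 genes had 12 probe sets out of 23999 on the array other than controls, where the annotation names 6765 genes in all. PTPRR is named by the study's list only, which was made from these same arrays, so its difference between the sexes is a description of why it was listed and not independent evidence. The annotation names the other 11 probe sets whatever their values were.

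RNA came from whole aortic valve leaflets of mixed-breed pigs, 3 females and 3 castrated males, all 5 months old and weighing about 90 kg, with 1 pig on each Affymetrix Porcine Genome Array. Leaflets were removed within 5 hours of death, and the endothelium of both groups was scraped off with a scalpel. The males had been castrated, so sex and castration cannot be told apart in this comparison. The values are log2 expression values, on which a difference of 1 is 2-fold, and all differences are male minus female.

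A MAPK cascade passes a signal from RAS and RAF through a MAP2 kinase to a MAPK, which phosphorylates transcription factors and other kinases. MAP2K1 and MAP2K2 activate ERK, of which MAPK3 (ERK1) is a member, while MAPK8 (JNK1) and MAPK14 (p38α) belong to the stress-activated branches. Kinase activity is set largely by phosphorylation, which an array of transcripts does not measure. DUSP6, SPRY2 and ETV5 are transcribed when ERK is active and are commonly read as a transcript record of its activity, and DUSP6 and PTPRR are phosphatases that remove the activating phosphates from ERK. In valve interstitial cells, the fibroblast-like cells of the leaflet, ERK signalling has been studied in the context of calcification.

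The 6 arrays were alike in their overall level, with medians from 7.33 to 7.38, and over all probe sets the correlation between arrays was 0.987 to 0.993 within a sex and 0.972 to 0.987 between sexes. Markers of valve interstitial cells and fibroblasts were high on all arrays, with a mean over 11 genes of 11.95 to 12.29. Markers of cardiomyocytes averaged 4.86 to 5.16 over 7 genes, under the 25th percentile of all values (5.52). Endothelial markers were present despite the scraping. Their mean over 13 genes was 9.15 to 9.92 in males and 8.72 to 9.36 in females. Of these genes, KDR read under the 25th percentile on all arrays at the annotated probe set used here. The paper, in contrast, reports KDR as higher in males from these arrays, with substantial agreement by qRT-PCR. The low reading is therefore a property of this probe set and not a measure of whether KDR is expressed. In bulk tissue, fewer cells of a type and less RNA per cell cannot be told apart.

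Of the 12 member probe sets, 1 differed between the sexes at an adjusted p under 0.05 (limma, Benjamini-Hochberg) and at least 2-fold, and it was PTPRR. The same limits were passed by 0.304% of all 23999 probe sets. The study applied a filter based on the CV (coefficient of variation, the SD over the mean) without stating the share kept. With a CV filter chosen here, which keeps the 10% with the highest CV over the 6 arrays, PTPRR was the only member kept, and it was called there too, beside 7.59% of the 2412 probe sets kept. None of the 11 probe sets named by the annotation passed, and none of them reached an unadjusted p under 0.05, which 16.9% of all probe sets did. For 9 of the 12, the 95% confidence interval of the difference lay within 2-fold in either direction. The exceptions were PTPRR and both probe sets of DUSP6. The mean was higher in males for 10 of the 12 and lower for 2, where 49.1% of all probe sets were higher. The 12 are not independent, since 5 genes have more than 1 probe set and PTPRR was listed for its difference. Males and females had no overlap for 3 of the 12 (MAPK3, 1 probe set of MAP2K2 and PTPRR), as for 22.4% of all probe sets.

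**Figure D1:**
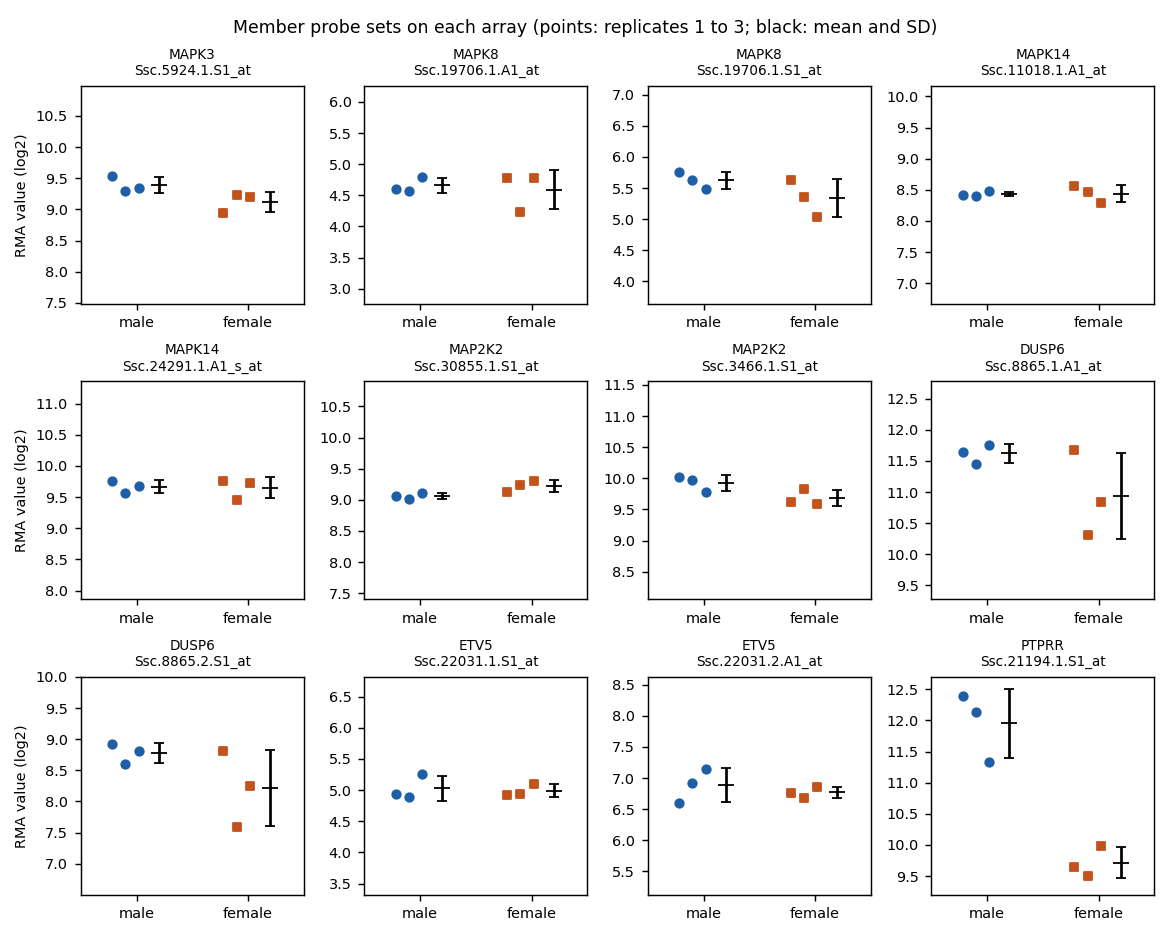
Log2 expression (y axis, RMA values) of the 12 member probe sets on the 3 male arrays (blue circles) and 3 female arrays (orange squares), with the mean and SD in black. Points run from replicate 1 to 3 within a sex, and each panel spans the same height on the log2 scale. The sexes lie far apart only for PTPRR (male mean 11.95, female mean 9.71), and the female arrays of DUSP6 are widely spread because replicate 1 lies level with the males.

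For the MAPK transcripts among the members, the intervals of the difference all lay within 2-fold, which does not show that the sexes are equal. MAPK3, the ERK1 gene, had values of 9.54, 9.30 and 9.35 in males and 8.93, 9.23 and 9.20 in females. All males were above all females, by a small margin at the nearest pair. The mean difference was 0.27 (SE 0.13, n = 3 and 3), with a 95% interval of -0.02 to 0.57 and an adjusted p of 0.327 from limma. A 2-fold difference in either direction lay outside that interval.

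MAPK14, which encodes the p38α kinase, had the smallest difference among the members. Its probe set Ssc.11018.1.A1_at gave 8.42, 8.40 and 8.48 in males and 8.56, 8.46 and 8.29 in females. The females covered the whole range of the males, and the interval of the difference was -0.25 to 0.25. A further probe set, Ssc.24291.1.A1_s_at, gave 9.76, 9.56 and 9.68 in males and 9.76, 9.46 and 9.73 in females, again with full overlap. Its difference was 0.02 with an interval of -0.27 to 0.31. The ending _s_at marks probes that match more than 1 transcript. The interval of each probe set lay well inside 2-fold, and the first of them is the one that does not carry that ending.

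MAPK8, the JNK1 gene, was measured near the bottom of the range of the array. Probe set Ssc.19706.1.A1_at read 4.61, 4.58 and 4.79 in males and 4.78, 4.23 and 4.77 in females. Probe set Ssc.19706.1.S1_at read 5.75, 5.63 and 5.48 in males and 5.63, 5.36 and 5.03 in females. The sexes overlapped in both, and both had a mean under the 25th percentile of all values. Differences were 0.07 (interval -0.33 to 0.47, adjusted p = 0.878 from limma) and 0.28 (interval -0.12 to 0.67, adjusted p = 0.447). The upper bound of 0.67 is the farthest from 0 among the 7 kinase probe sets. The MAPK8 intervals are the widest of the kinases and come from a signal at the low end of the scale.

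MAP2K2, a kinase directly upstream of ERK, is the only MAP2 kinase among the members with data, and its 2 probe sets pointed in opposite directions. Ssc.30855.1.S1_at gave 9.05, 9.01 and 9.12 in males and 9.12, 9.24 and 9.30 in females. Males were lower without overlap, though the nearest male and female differed only in the third decimal, and the mean difference was -0.16 (interval -0.39 to 0.07, adjusted p = 0.464 from limma). Ssc.3466.1.S1_at gave 10.03, 9.97 and 9.78 in males and 9.62, 9.83 and 9.59 in females. Here males were higher on average with overlap, by 0.24 (interval -0.04 to 0.52, adjusted p = 0.350). The gap between the differences, 0.40, had an exact two-sided permutation p of 0.1 over the 6 arrays, the smallest that 3 against 3 can give, and an adjusted p of 0.5 over the 5 genes with 2 probe sets. No direction can be given for MAP2K2 from these arrays.

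**Figure D2:**
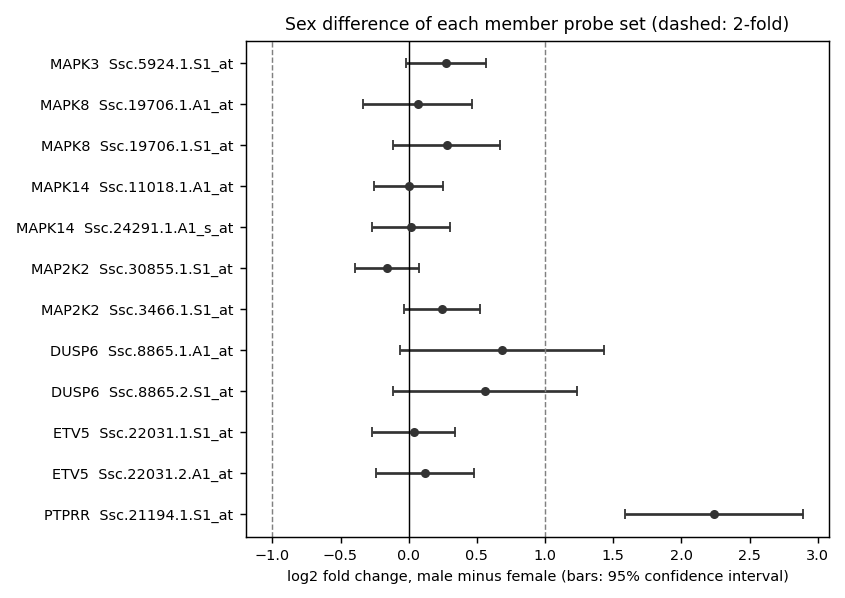
Log2 fold change, male minus female (x axis), of the 12 member probe sets (y axis) from the limma comparison over all probe sets, with 95% confidence intervals as bars and dashed lines at 2-fold. The 7 kinase probe sets and ETV5 lie inside the dashed lines with their whole intervals, the DUSP6 intervals cross 0 and the upper line, and PTPRR lies beyond it with an interval of 1.59 to 2.89.

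Of the 2 ERK-induced members with data, DUSP6 varied more than ETV5 between arrays. DUSP6 encodes a cytoplasmic phosphatase that acts on ERK and is itself switched on by ERK signalling. Probe set Ssc.8865.1.A1_at gave 11.65, 11.46 and 11.76 in males, and 11.67, 10.30 and 10.84 in females. The males lay close together (SD 0.15), and the females were spread (SD 0.69), since female replicate 1 was level with the males and female replicates 2 and 3 were below all of them. The second probe set, Ssc.8865.2.S1_at, gave 8.92, 8.60 and 8.81 in males, and 8.81, 7.59 and 8.25 in females, with the same arrays low. The 2 probe sets correlated at 0.98 over the 6 arrays (0.97 after the mean of each sex was taken out), as a description of the same RNA read by separate probes.

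The mean difference of DUSP6 did not pass the test in either probe set. It was 0.68 (SE 0.32, interval -0.06 to 1.43, adjusted p = 0.332 from limma) and 0.56 (SE 0.29, interval -0.11 to 1.24, adjusted p = 0.374). These intervals include both no difference and a difference over 2-fold. Leaving out female replicate 1 raised the differences to 1.05 and 0.86, leaving out female replicate 2 lowered them to 0.37 and 0.25, and DUSP6 was not called in either case. The within-sex SD of the first probe set, 0.498, stood at the 95.6th percentile of all probe sets, whose median was 0.168.

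The arrays low in DUSP6 were also low in 5 other genes that are induced early after a stimulus, of which FOS and DUSP1 are shown because their values were seen to follow DUSP6. FOS, a subunit of the AP-1 transcription factor, read 13.81, 13.84 and 13.98 in males and 14.03, 13.41 and 13.63 in females. DUSP1, a nuclear phosphatase of p38, JNK and ERK, read 13.89, 14.10 and 14.12 in males and 14.35, 13.23 and 13.78 in females. For both genes, female replicate 1 was the highest array and female replicates 2 and 3 the lowest. JUN, the partner of FOS in AP-1, read 12.28, 11.83 and 12.37 in males and 11.59, 10.55 and 10.90 in females. EGR1, an immediate early zinc finger factor, read 12.45, 12.73 and 12.86 in males and 12.65, 11.80 and 11.54 in females. IER2, an immediate early nuclear protein, read 12.29, 11.995 and 12.63 in males and 11.90, 11.24 and 11.15 in females. In JUN and IER2 all females were below all males, with female replicate 1 nearest to them. On the list of ERK targets, which also holds FOS, EGR1 and IER2, the genes MYC, IER3 and FOSL2 did not share this. FOSL1 and LIF on that list lay between, with an r of 0.63 and 0.41 with the first DUSP6 probe set. MYC, a growth-related transcription factor, read 11.38, 11.76 and 10.49 in males and 10.53, 12.27 and 10.76 in females. IER3 read 10.35, 10.77 and 10.59 in males and 10.16, 10.94 and 9.86 in females. For both, female replicate 2, the array lowest in DUSP6, was the highest of all. FOSL2, an AP-1 subunit, read 9.94, 10.45 and 9.46 in males and 11.41, 10.80 and 9.85 in females, with female replicates 1 and 2 above all males.

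Over the 6 arrays DUSP6 correlated with FOS at 0.96, with JUN at 0.93, with DUSP1 at 0.90, with IER2 at 0.88 and with EGR1 at 0.86, but with FOSL2 at -0.17, with IER3 at -0.21 and with MYC at -0.61. Without female replicates 2 and 3, the arrays farthest from the median of DUSP6, the first 5 ranged from 0.11 (DUSP1) to 0.64 (IER2) over the remaining 4 arrays, where DUSP6 spans less, and the r between the DUSP6 probe sets themselves was 0.78. The high values over 6 arrays thus rest on those females. The genes share the RNA of each array, and 2 other probe sets of EGR1 did not follow the first (differences of -0.25 and 0.01 against 0.68). Marker levels of other cells also varied between the arrays. The interstitial and fibroblast mean over 11 genes was 11.95, 12.08 and 11.996 in males and 12.04, 12.29 and 12.17 in females, highest where DUSP6 was lowest. Its r with the DUSP6 probe sets was -0.96 and -0.98 over the 6 arrays, and 2 of the 11 genes had a higher mean in males. The interstitial mean was highest on female replicates 2 and 3, and this r was not computed without them. The macrophage and lymphocyte mean over 8 genes was 7.86, 8.26 and 7.72 in males and 8.43, 7.67 and 7.43 in females. Its r with the DUSP6 probe sets was 0.55 and 0.47. Of these 8 genes 4 had a higher mean in males. The part of either in the DUSP6 values was not tested.

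**Figure D3:**
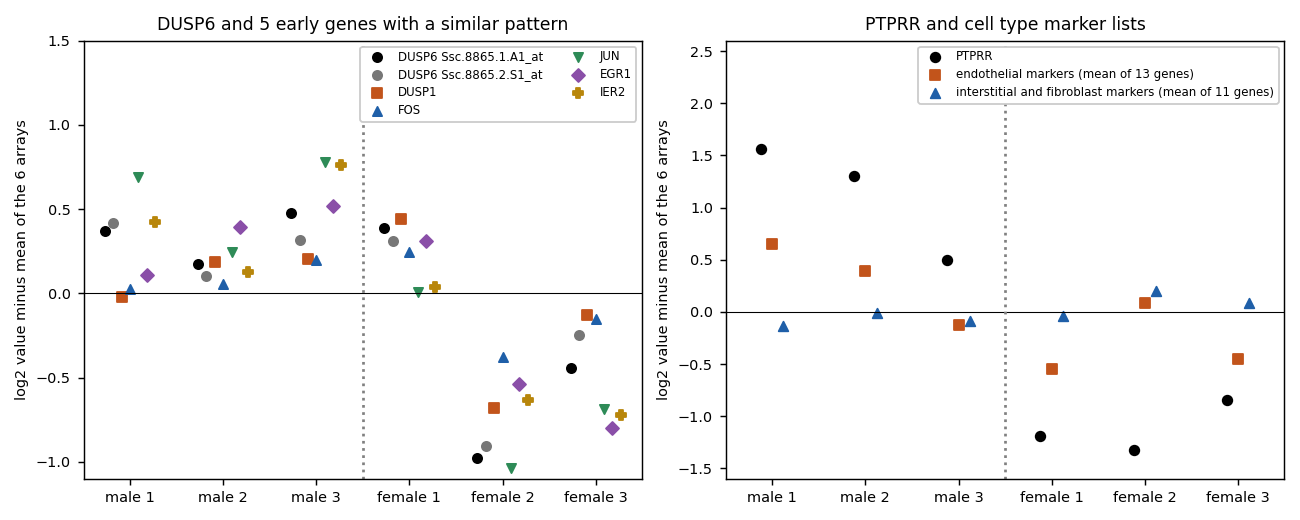
Log2 values minus the mean of the 6 arrays (y axis) for each male and female array (x axis), with DUSP6, DUSP1, FOS, JUN, EGR1 and IER2 on the left and PTPRR with the means of endothelial markers and of interstitial and fibroblast markers on the right. On the left, where FOS and DUSP1 were chosen for following DUSP6, female replicates 2 and 3 are below 0 for all genes shown and female replicate 1 is not. On the right, PTPRR separates the sexes and the endothelial means overlap (male replicate 3 at 9.15, female replicate 2 at 9.36). Of the 13 endothelial genes taken singly, 5 have no overlap of the sexes.

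ETV5, an ETS family transcription factor that ERK signalling induces, did not show the pattern of DUSP6. Probe set Ssc.22031.2.A1_at gave 6.60, 6.91 and 7.15 in males and 6.76, 6.68 and 6.86 in females. The sexes overlapped, and the difference was 0.12 (interval -0.24 to 0.48, adjusted p = 0.741 from limma). Probe set Ssc.22031.1.S1_at gave 4.94, 4.89 and 5.25 in males and 4.92, 4.94 and 5.10 in females. Its mean also lay under the 25th percentile. Its difference was 0.04 (interval -0.27 to 0.34, adjusted p = 0.918). In both probe sets the highest array was male replicate 3.

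PTPRR, a receptor-type tyrosine phosphatase that binds ERK and p38 and removes the phosphate from their tyrosine, differed most among the members. Probe set Ssc.21194.1.S1_at gave 12.39, 12.14 and 11.33 in males and 9.64, 9.51 and 9.99 in females. The lowest male was above the highest female by more than 2-fold. Male and female means were 11.95 ± 0.55 and 9.71 ± 0.25 (SD, n = 3 each), a log2 fold change of 2.24 (SE 0.28, interval 1.59 to 2.89), or 4.72-fold. By size of the difference it ranked 43 of 23999. The adjusted p from limma was 0.0376 over all probe sets and 0.0059 with the CV filter. Without male replicate 1 or 2, or without any 1 of the females, PTPRR was no longer called over all probe sets (adjusted p from 0.0921 to 0.162), with a log2 fold change between 2.02 and 2.38. Without male replicate 3, it was called with a log2 fold change of 2.55 (adjusted p = 0.00666). With the CV filter it was called whichever array was left out (adjusted p up to 0.0197). That filter takes the CV over the arrays of both sexes, so a difference between the sexes itself helps a probe set to be kept. With a filter on the CV within each sex, PTPRR was not kept.

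Markers of other cell types were set beside PTPRR. Of the 13 endothelial markers, 10 were higher on average in males (median difference over all 13, 0.61). The sexes had no overlap for 5 of the 13, a larger share than the 22.4% of all probe sets. An unadjusted limma p under 0.05 was reached by 6 of the 13, against 16.9% of all probe sets. None of the 13 was called over all probe sets. With the CV filter, 6 were kept and 1 (ESAM, a junction protein, difference 1.59) was called, beside 7.59% of all probe sets kept. Over the arrays the mean of the 13 endothelial markers was 9.92, 9.66 and 9.15 in males, in the order of PTPRR. In females it was 8.72, 9.36 and 8.81, not in the order of PTPRR. Female replicate 2 had a higher endothelial mean than male replicate 3 and a lower PTPRR value, 9.51 against 11.33. The r of PTPRR with the endothelial mean was 0.79 over the 6 arrays, and 0.52 after the mean of each sex was taken out. Of the 8 nerve and melanocyte markers, 3 were higher in males, and their mean was 6.76 to 7.03 in males and 6.32 to 6.56 in females. Only NPY, a peptide of sympathetic nerves, passed the test among them, with a difference of 4.39 (adjusted p = 0.0396 from limma). Without it the mean over the other 7 was 6.27 to 6.53 in males and 6.35 to 6.78 in females, with overlap, and 2 of the 7 were higher in males. Levels within this list were uneven. The neuronal genes SNAP25 and STMN2 read 3.49 to 4.55 on all arrays, below the 25th percentile. UCHL1 read 9.53 to 10.29 and S100B 11.37 to 12.31, both with a lower mean in males. The part of these cells in the PTPRR values was not tested.

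For PTPRR, the annotated genes with the most similar profile over the 6 arrays were ZDHHC18 (r = 0.99), PAFAH2 and LOC100158115, and 5.14% of the 6106 annotated probe sets compared reached 0.9. These 6 arrays lie in 2 groups, and the sexes differ in PTPRR. DNM1L, AAGAB and GATA2 were nearest to DUSP6 (r from 0.98 to 0.99), and 1.62% of probe sets reached 0.9. The differences of these 3 genes between the sexes were small (0.17 to 0.30), and each had female replicate 2 as its lowest array. THAP12, SMIM20 and NANOS1 were nearest to ETV5 (r from 0.95 to 0.97), and 0.246% of probe sets reached 0.9.

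The wider pathway was read from lists of 150 further genes of MAPK signalling, of which 54 had a probe set, 1 being used per gene. The mean was higher in males for 34 and lower for 20, with a median difference of 0.08, against 49.1% higher and a median of -0.01 over all probe sets. None of the 54 was called over all probe sets by limma, where 0.304% of all probe sets were. An unadjusted p under 0.05 was reached by 16 (29.6%, against 16.9% of all probe sets), and 14 had no overlap of the sexes (25.9%, against 22.4%). With the CV filter, 1 of the 3 genes kept was called, and 7.59% of all probe sets kept were. This was LIF, a cytokine of the interleukin 6 family that ERK can induce, with 7.76, 8.07 and 7.81 in males and 6.29, 7.05 and 5.08 in females. All males were above all females. Its difference was 1.74 (SE 0.44, adjusted p = 0.0465 with the CV filter and 0.156 over all probe sets, both from limma), and it was not called with the filter without male replicate 1 or 2 or without female replicate 1 or 3. LIF also stands in the study's list from these arrays.

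**Figure D4:**
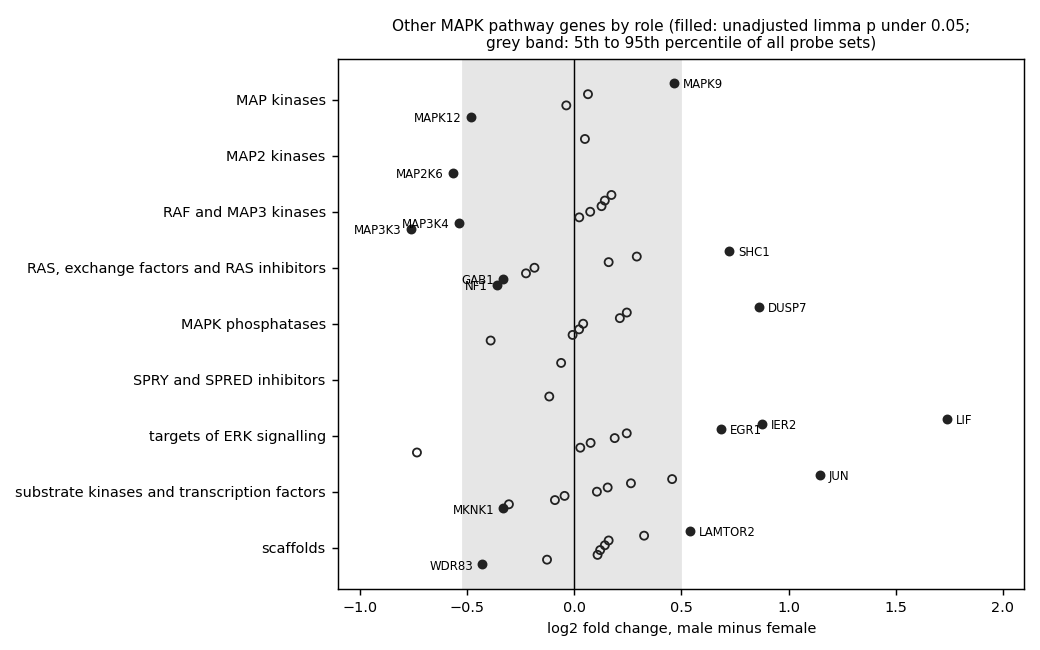
Log2 fold change, male minus female (x axis), of 54 other MAPK pathway genes grouped by role (y axis), with filled points where the unadjusted limma p was under 0.05 and a grey band from the 5th to the 95th percentile of all probe sets (-0.52 to 0.50). Most genes lie in the band; LIF at 1.74 and JUN at 1.14 are farthest to the right and MAP3K3 at -0.76 farthest to the left.

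Among 4 further MAP kinases, MAPK12 (p38γ) had a difference of -0.48 (adjusted p = 0.182 from limma) and MAPK9 (JNK2) one of 0.47 (adjusted p = 0.194), both without overlap of the sexes. MAPK6 had one of 0.06, and another MAPK6 probe set gave 0.41. The MAP2 kinases measured were MAP2K6, which activates p38, and MAP2K4, which activates JNK. MAP2K6 read 6.17, 6.35 and 6.39 in males and 6.93, 6.95 and 6.73 in females. All males were below all females, and the difference of -0.57 had the smallest adjusted p of the pathway genes, 0.109. MAP2K4 had a difference of 0.05. Of 7 RAF and MAP3 kinases, MAP3K4 was at -0.54 (adjusted p = 0.157), MAP3K3 at -0.76 (adjusted p = 0.242) and ARAF, a RAF kinase of the ERK branch, at 0.17. Other probe sets of MAP3K3 gave -0.58 and -0.03. Of 7 genes around RAS, the adaptor GAB1 was at -0.33, the RAS inhibitor NF1 at -0.36 and the adaptor SHC1 at 0.72 (adjusted p from 0.217 to 0.263).

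Of 7 other MAPK phosphatases, DUSP7, a close relative of DUSP6 that also acts on ERK, had the largest difference. It read 9.16, 8.55 and 8.51 in males and 8.04, 7.88 and 7.71 in females. All males were above all females, by 0.86 on average (interval 0.41 to 1.32, adjusted p = 0.125 from limma). DUSP14 was at -0.39 and PPP2CA, a catalytic subunit of protein phosphatase 2A, at 0.21. Another PPP2CA probe set gave 0.50, without overlap of the sexes. In the list of SPRY and SPRED inhibitors no SPRY or SPRED gene was measured. Its members with data, PEBP1, which binds RAF, and PEA15, which binds ERK, were at -0.12 and -0.06. Another PEA15 probe set gave 0.24.

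Of 8 targets of ERK signalling, 7 had a higher mean in males, among them LIF, IER2 (0.88, adjusted p = 0.171 from limma) and EGR1 (0.68, adjusted p = 0.285). Of 9 substrate kinases and transcription factors, 5 were higher, with JUN at 1.14 (interval 0.50 to 1.79, adjusted p = 0.142), the ribosomal S6 kinase RPS6KA3 at 0.46 and MKNK1, a kinase that ERK and p38 activate, at -0.33. Of 8 scaffolds, 6 were higher, with LAMTOR2, part of the complex that holds MEK at late endosomes, at 0.54 (adjusted p = 0.155), WDR83 at -0.43 and SPAG9, a scaffold of JNK, at 0.33. Another WDR83 probe set gave 0.02. Apart from LIF with the CV filter, none of the genes named in these roles passed the adjusted test.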

How the data were processed

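From each pig, 400 ng of leaflet RNA entered the labelling reaction, and each array held 1 pig. Per the labels, the authors processed the scans by RMA (R 2.12.0), and the deposited values are on the log2 scale. Raw intensities were not used here, so background correction and normalization were not repeated, and low signals may be compressed. The number of arrays limits the precision. Groups were taken from the sample titles.

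Using R 4.3.3 and limma 3.58.1 (with statmod 1.5.0), a linear model with moderated variances and no covariate contrasted males with females, over 23999 probe sets and on the 2412 (10%) with the highest CV; the methods name a CV filter but not its share, and describe it as removing values unlike between replicates, a reading tried as an alternative. Calls needed a Benjamini-Hochberg adjusted p under 0.05 and 2-fold.

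Members, lists and the CV share were chosen with earlier results of these data known. Named pathway genes are those called and, per role, the 3 with the smallest p. FOS, DUSP1, MYC, IER3, FOSL1, FOSL2 and the cell type markers shown singly were added after their values were seen. Genes were taken by the annotation and the probe set with the highest mean. Similar profiles were sought among annotated genes with a mean above the median. Python 3.11.15 with matplotlib 3.10.9 made the figures. Probe sequences were not used here. Alternatives are in the closing section.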

Additional observations from a re-analysis of the deposited data

How the results depend on the processing

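PTPRR had a log2 fold change between 2.02 and 2.55 under all alternatives over all probe sets, and its call was lost in 5 of the 6 fits that left out 1 array. No other member was called under any alternative. Leaving out each array in turn gave 0 to 1 members called over all probe sets and 0 to 1 pathway genes called with the CV filter. When the filter instead kept probe sets whose within-sex CV was under the median, 0 members and 0 pathway genes were called, since neither PTPRR nor LIF was kept. With array weights, 1 pathway gene (LIF) was called over all probe sets, and with names from the study's own list added, an alternative chosen after seeing the data, 2 pathway genes (LIF and PHLDA1, at 1.33) were called with the filter. Small differences changed sign. With array weights MAPK8 at Ssc.19706.1.A1_at was -0.0623, MAPK14 at Ssc.24291.1.A1_s_at -0.0863 and ETV5 at Ssc.22031.1.S1_at -0.0581. Over the arrays left out in turn, MAPK8 at Ssc.19706.1.A1_at ranged from -0.114 to 0.159, MAPK14 from -0.0748 to 0.0607 (Ssc.11018.1.A1_at) and -0.0775 to 0.0757 (Ssc.24291.1.A1_s_at), and ETV5 from -0.0761 to 0.106 (Ssc.22031.1.S1_at) and -0.0118 to 0.264 (Ssc.22031.2.A1_at). The cause was not tested. With the replicate number as a block, PTPRR had an adjusted p of 0.0454 from limma over all probe sets, and no count of calls changed. Deviations of same-numbered arrays from the means of their sexes correlated at -0.10, 0.01 and 0.27. Arrays with different numbers were not compared in this way, so these values cannot tell whether the numbers pair the arrays. DUSP6 had differences from 0.37 to 1.05 and from 0.25 to 0.86 over the arrays left out, and its signal was well inside the range of the array, while MAPK8 and 1 probe set of ETV5 were near its bottom.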
